A study of Mus musculus with 24 samples.

Results

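Adrenaline is made from tyrosine by 4 enzymes in sequence, TH, DDC, DBH and PNMT, is broken down by the monoamine oxidases MAOA and MAOB, and acts through adrenergic receptors. The genes described here are those enzymes together with the receptor genes Adrb1, Adrb3 and Adra1b, 9 genes in all. They were taken as every probe of the array whose annotated symbol is 1 of these 9. Of the 9 genes, 7 had a probe, with 1 probe each, among 17742 named genes on 26423 probes. Adrb1 and Adrb3 were not analysed here. The set was put together with the outcome of the same comparison known, with the Pnmt probe among the largest differences, so the values of its genes are given as a description with no p-value. Where a count says how many of them passed the limma threshold, it describes the same values that led to their choice and supports nothing.

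Tyrosine hydroxylase, TH, adds a hydroxyl group to tyrosine and is the rate-limiting step of catecholamine synthesis. Its product is decarboxylated by DDC to dopamine, which DBH converts to noradrenaline inside vesicles, and PNMT adds a methyl group to noradrenaline to give adrenaline. The whole chain runs in chromaffin cells of the adrenal medulla, while sympathetic nerve endings in muscle release noradrenaline. In muscle fibres, adrenaline reaches beta-adrenergic receptors, which raise cyclic AMP through the G protein Gs and so drive the breakdown of glycogen.

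RNA came from tibialis anterior, a muscle of the lower hind limb, of 8 mice aged 6 weeks on the background C57BL6/J;129S1/SvImJ. Both groups carried Myf6 cre/+, a cre driver active in skeletal muscle fibres. The 4 control animals were Hira flox/+ and the 4 animals labelled Hira CKO (conditional knockout) were Hira flox/-, so that cells outside the muscle lineage also differed, by an intact against a null allele. Hira encodes a chaperone that places the histone variant H3.3 into chromatin, and the study asked how its deletion changes gene expression in this muscle. Each animal was hybridised on 3 arrays, which were averaged, and the animal was the replicate.

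Hira itself read 569, 472, 467 and 473 in the controls and 614, 553, 524 and 543 in Hira CKO, so its probe showed no fall (0.17 log2, limma adjusted p 0.193). The position of that probe against the floxed segment is not known here, so it does not check the labels. Array medians lay between 431.5 and 433.5 intensity units. The 10 measured skeletal muscle fibre markers had control means between 106789 (Actn3) and 275287 (Tnni2), as the labelled tissue has. At an adjusted p below 0.05, 20.6% of all probes passed the limma test. Signal from genes of little use in muscle was wide: 544 olfactory receptor probes had a median of 118, an upper quartile of 423 and a 95th percentile of 2213. Both group means of Th, Ddc, Dbh, Maoa and Adra1b lay below that 95th percentile, as did the control mean of Pnmt. Both means of Ddc and Maoa lay below the upper quartile too, and those of Adra1b below the median. A probe's brightness by itself therefore does not show that its gene is expressed.

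Promoter sequences are shown for Th, the entry step of the chain, and for Ddc and Maoa, whose intensities did not overlap between the groups. The RefSeq table (GRCm38.p6) held promoters for 5 of the 7 measured genes (Th, Ddc, Dbh, Maoa and Adra1b, not Pnmt or Maob), each running from 250 bases before a transcription start to 50 after it, written 5′ to 3′ on the gene's strand. Capitals mark matches to 5 motifs searched on both strands: the cyclic AMP response element TGACGTCA, the Egr site GCGNGGGCG, the GC box GGGCGG, the TATA box TATAAA and the glucocorticoid response element GNACANNNTGTNC.
Th, chr7:142899946-142900245, minus strand: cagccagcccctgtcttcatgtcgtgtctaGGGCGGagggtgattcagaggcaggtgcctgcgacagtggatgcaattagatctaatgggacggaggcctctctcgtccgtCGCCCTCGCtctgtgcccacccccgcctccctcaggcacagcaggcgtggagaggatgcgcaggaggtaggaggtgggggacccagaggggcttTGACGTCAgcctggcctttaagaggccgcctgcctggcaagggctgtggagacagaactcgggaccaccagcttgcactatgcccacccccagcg
Maoa, chrX:16619448-16619747, plus strand: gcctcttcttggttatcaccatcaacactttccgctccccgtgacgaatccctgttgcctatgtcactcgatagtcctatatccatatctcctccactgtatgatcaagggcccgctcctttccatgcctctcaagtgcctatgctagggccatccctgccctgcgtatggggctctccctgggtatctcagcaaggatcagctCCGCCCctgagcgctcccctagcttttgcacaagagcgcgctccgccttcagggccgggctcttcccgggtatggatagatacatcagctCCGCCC
Ddc, first start, chr11:11898095-11898394, minus strand: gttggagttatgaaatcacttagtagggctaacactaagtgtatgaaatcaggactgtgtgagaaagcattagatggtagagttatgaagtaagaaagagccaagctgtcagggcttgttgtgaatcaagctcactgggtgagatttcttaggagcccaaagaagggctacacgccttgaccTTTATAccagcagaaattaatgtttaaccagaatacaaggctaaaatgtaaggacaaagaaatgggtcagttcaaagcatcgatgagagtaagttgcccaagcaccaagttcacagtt
Ddc, second start, chr11:11890359-11890658, minus strand: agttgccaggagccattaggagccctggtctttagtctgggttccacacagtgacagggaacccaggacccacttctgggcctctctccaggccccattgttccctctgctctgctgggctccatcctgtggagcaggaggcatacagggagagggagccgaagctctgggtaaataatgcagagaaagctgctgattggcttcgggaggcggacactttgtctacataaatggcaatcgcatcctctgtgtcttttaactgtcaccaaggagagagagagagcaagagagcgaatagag
The Th promoter held 1 cyclic AMP response element beginning at -45, a motif found in 1.79% of 32851 promoters of the same length. It also held an Egr site at -139 (5.55% of promoters) and a GC box at -220 (35.7%). The Maoa window held GC boxes at -46 and 45. The first Ddc start had a TATA box match at -68 (13.6% of promoters) and the second start had no match. The glucocorticoid response element, in 0.475% of promoters, matched in none of the printed windows. A match describes the letters of the window and is not a binding site.

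The largest difference was at the last enzyme of the chain. Pnmt was 4.29-fold higher in Hira CKO than in control muscle, whereas Th, Ddc and Dbh, which supply its substrate, were 1.19-fold, 1.42-fold and 1.01-fold higher. Maoa was 1.31-fold higher, Maob 1.08-fold and Adra1b 1.13-fold. The mean was higher in Hira CKO for 7 of 7 genes, as it was for 52.1% of all probes, and the median difference of the 7 was 0.30 log2 against 0.01 over all probes. Of the 7 probes, 2 passed the threshold, both higher, where 10.5% of all probes passed as higher. The groups did not overlap, with Hira CKO above, for 3 of the 7 (Pnmt, Maoa and Ddc), as for 13.0% of all probes. Since the set was chosen on this comparison, nothing is read from these shares.

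**Figure D1:**
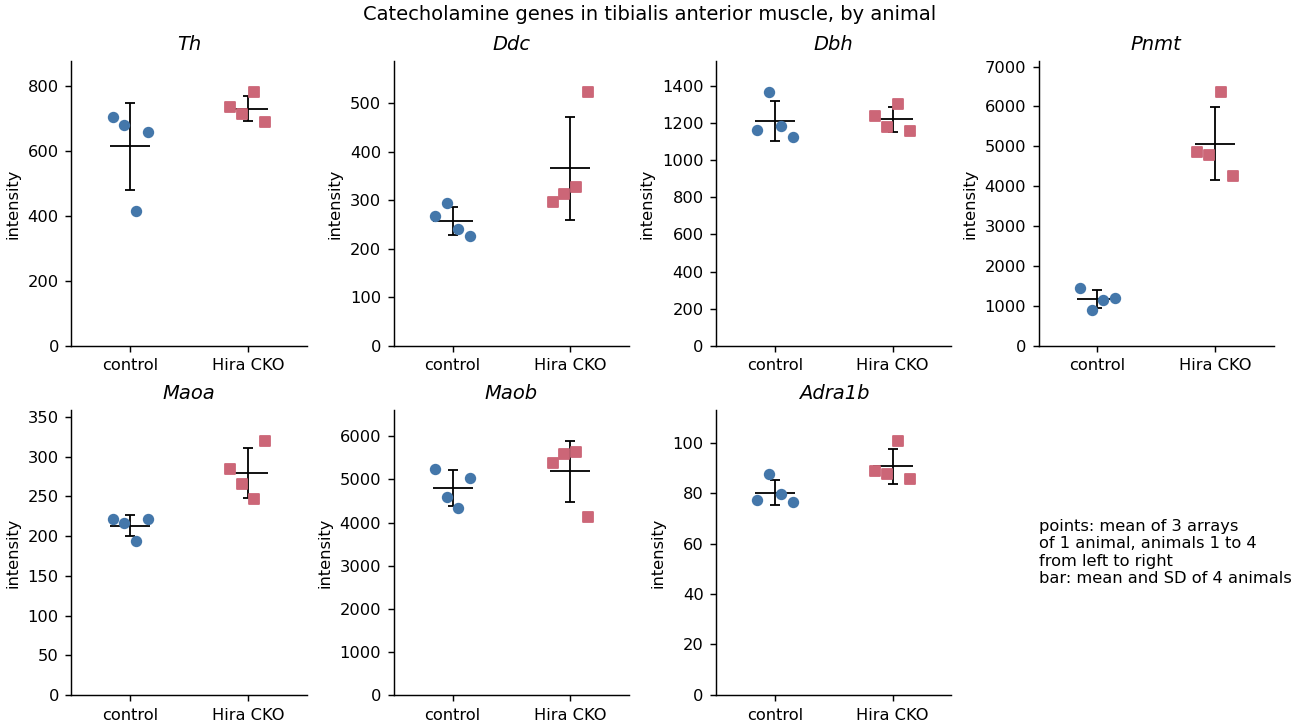
Intensity (linear scale from 0) of the 7 genes in each animal: blue circles are the 4 controls and red squares the 4 Hira CKO animals, each the mean of 3 arrays, with the group mean and SD as a bar. The 4 Hira CKO animals lie above the 4 controls for Pnmt, Maoa and Ddc, and the other 4 genes overlap.

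Th, the rate-limiting step, read 702, 678, 413 and 658 in the 4 controls. It read 733, 713, 782 and 690 in the 4 Hira CKO animals. Control animal 3 lay well below the other 7 animals, which spanned 658 to 782, and the groups overlapped between 690 and 702. The means were 613 ± 134 (SD, n = 4) and 729 ± 39.2 (SD, n = 4), a difference of 0.30 log2 (SE 0.153). Without control animal 3 the difference was 0.12 log2. The repeat arrays of Th varied more than for the other 6 genes, with an SD of 0.303 log2 between the arrays of an animal. The difference was 0.39, 0.47 and 0.04 log2 on array 1, array 2 and array 3 of each animal alone.

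Ddc encodes the decarboxylase that makes dopamine from DOPA and also serotonin from its precursor. Its intensity was 267, 294, 241 and 227 in controls and 297, 314, 328 and 524 in Hira CKO. Every Hira CKO animal was above every control, by a margin of 297 against 294 at the nearest, and Hira CKO animal 4 stood far above the other 3 on each of its arrays (571, 510 and 491). The means were 257 ± 29.5 (SD, n = 4) and 366 ± 106 (SD, n = 4), a difference of 0.45 log2 (SE 0.164), and it was 0.27 log2 without Hira CKO animal 4. Of the 12 Hira CKO arrays, 7 were above every control array.

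Dbh, which turns dopamine into noradrenaline, showed almost the same intensity in both groups. Controls read 1161, 1369, 1182 and 1127 and Hira CKO animals 1238, 1177, 1302 and 1159. The Hira CKO values lay within the range of the controls. The means were 1210 ± 108 (SD, n = 4) and 1219 ± 64.9 (SD, n = 4), a difference of 0.02 log2 (SE 0.0826), whose sign turned in 2 of the 8 fits that leave out 1 animal (-0.01 to 0.08).

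Pnmt, the methyltransferase that makes adrenaline, read 1452, 910, 1155 and 1206 in the 4 controls. In the 4 Hira CKO animals it read 4871, 4777, 6373 and 4255. The lowest Hira CKO animal was well above the highest control, and the 2 groups were separated by more than the range within either of them. The means were 1181 ± 223 (SD, n = 4) and 5069 ± 911 (SD, n = 4), a difference of 2.09 log2 (SE 0.155), which was 1.97 to 2.20 log2 when any 1 animal was left out. This was the 6th largest increase among the 26423 probes. RNA was taken from whole muscle, so more transcript per cell and more cells that carry it cannot be told apart here.

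The repeat arrays gave the same picture for Pnmt. The 12 control arrays ran from 811 to 1624 with a median of 1165, and the 12 Hira CKO arrays from 3938 to 6762 with a median of 4809, so that 12 of 12 lay above every control array. The SD was 0.111 log2 between arrays of an animal and 0.260 log2 between animals of a group.

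**Figure D2:**
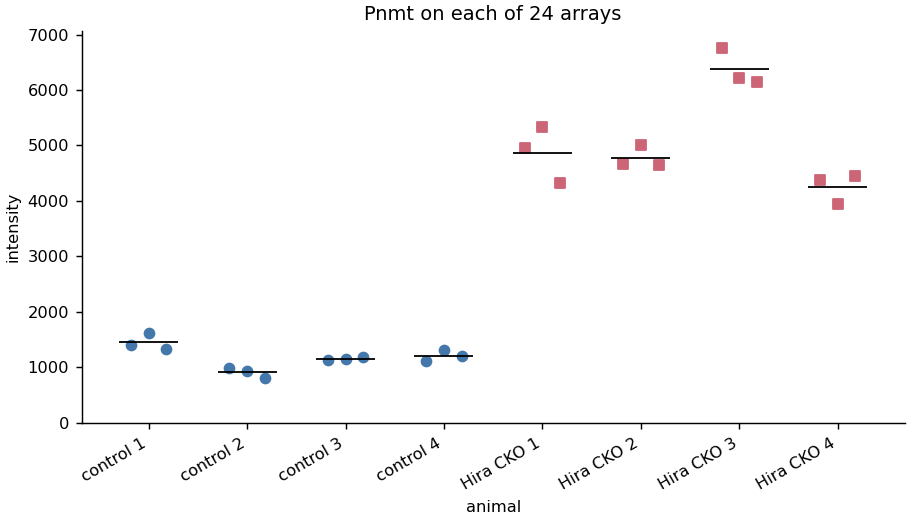
Pnmt intensity (linear scale from 0) on each of the 24 arrays, grouped by animal, with the animal mean as a line; blue circles are controls and red squares Hira CKO. Control arrays reach 1624 at most and Hira CKO arrays start at 3938.

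The 2 monoamine oxidases, mitochondrial enzymes that deaminate catecholamines and serotonin, lie next to each other on the X chromosome, and whether their differences differ from each other was not tested. Maoa read 221, 217, 194 and 221 in controls and 285, 266, 246 and 320 in Hira CKO, with no overlap. The means were 213 ± 13.0 (SD, n = 4) and 279 ± 31.6 (SD, n = 4), a difference of 0.36 log2 (SE 0.0894). With 1 animal left out the difference was 0.30 to 0.41 log2. Maob read 5253, 4584, 4327 and 5038 in controls and 5388, 5585, 5644 and 4129 in Hira CKO. Hira CKO animal 4 was the lowest of all 8 animals and the other 3 were the highest. The difference was 0.11 log2 (SE 0.113), and 0.21 log2 without that animal.

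Adra1b, a Gq-coupled alpha-adrenergic receptor, was the dimmest of the 7 probes, at the 16.8th percentile of mean brightness. It read 77.1, 87.4, 79.5 and 76.5 in controls and 88.7, 87.7, 101 and 85.4 in Hira CKO. The groups overlapped through control animal 2 and Hira CKO animal 4. The difference was 0.15 log2 (SE 0.0748), on a scale with a pseudocount of 16 that understates changes of dim probes.

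**Figure D3:**
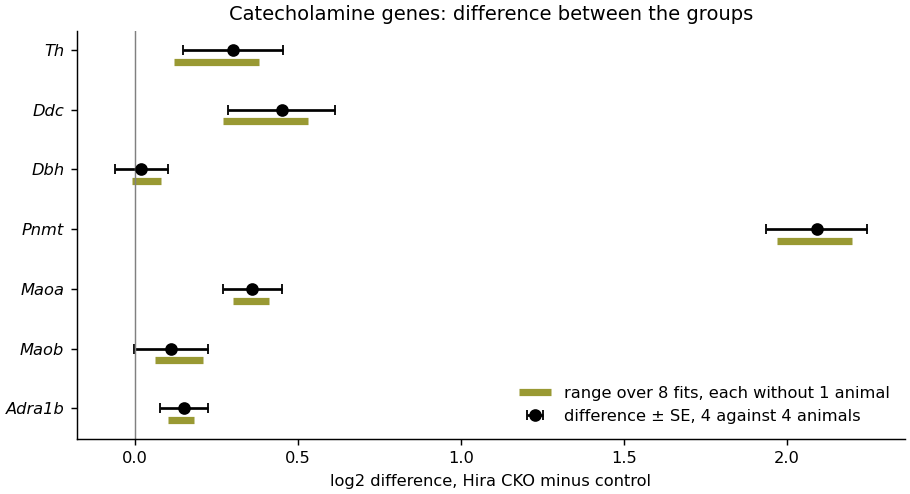
Difference between Hira CKO and control on the log2(intensity + 16) scale for the 7 genes, in the order of the pathway, with the standard error from limma and, below each point, a bar for the range over the 8 fits that each leave out 1 animal. Pnmt lies at 2.09 and the other 6 between 0.02 and 0.45.

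Pnmt lies on chromosome 11 between Tcap and Pgap3. Of the 3 nearest measured genes on each side, 0 of 6 passed the limma test. Tcap, a titin-binding protein of the muscle Z-disc and the neighbour on one side, had a control mean of 180368 ± 8653 and a Hira CKO mean of 187870 ± 12091 (SD, n = 4 each), a difference of 0.06 log2 (limma adjusted p 0.628). Pgap3, the neighbour on the other side, acts on the lipid anchor of surface proteins and differed by 0.06 log2 (limma adjusted p 0.667). Erbb2, a receptor tyrosine kinase gene, differed by 0.81 log2 (SE 0.299, limma adjusted p 0.0834). Its control values were 405, 535, 188 and 648 against 639 to 743 in Hira CKO, so control animal 3 was lowest here as well. It passed only without control animal 4 (1.05 log2, limma adjusted p 0.0266). At an unadjusted p below 0.05 only Erbb2 of the 6 passed.

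Over the 7 genes, 36 different neighbours were measured, and at the brightest probe of each 5 were higher and 4 lower in Hira CKO. By the brightest probe of each gene, 11.0% of all genes were higher and 10.3% lower. Beside Th, Gm6471 was higher by 0.88 log2 (limma adjusted p 0.0042) and Igf2os, an antisense transcript of the imprinted Igf2 locus, was lower, from 1678 ± 273 to 944 ± 244 (SD, n = 4), by -0.89 log2 (limma adjusted p 0.0044). The strand its probe reads is not given in the sources used here, so it cannot be told apart from its sense partner. Beside Ddc, Spata48 was higher by 0.96 log2 (limma adjusted p 1.09e-04) and the actin nucleator gene Cobl lower by -0.36 log2 (limma adjusted p 0.0061). Beside Dbh, Adamtsl2, which encodes a matrix glycoprotein, was lower by -0.54 log2 (limma adjusted p 0.0049). Grb10, the imprinted signalling adaptor next to Ddc, did not pass, at 6344 and 6379. On the far side of Maob, Ndp, which encodes the secreted ligand norrin, was lower by -0.32 log2 and Efhc2 higher by 0.70 log2 (limma adjusted p 0.0093 and 4.95e-04). Tspan32 beside Th (0.28 log2) and Rnf145 beside Adra1b (0.21 log2) were no longer called in 7 and in 8 of the 8 fits that leave out 1 animal. A second Rnf145 probe differed by 0.04 log2. Pwwp2a, also beside Adra1b, did not pass at its brightest probe (0.19 log2, limma adjusted p 0.162). Its second probe was lower by -0.47 log2 (limma adjusted p 0.0041), and which probe follows the gene was not tested.

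**Figure D4:**
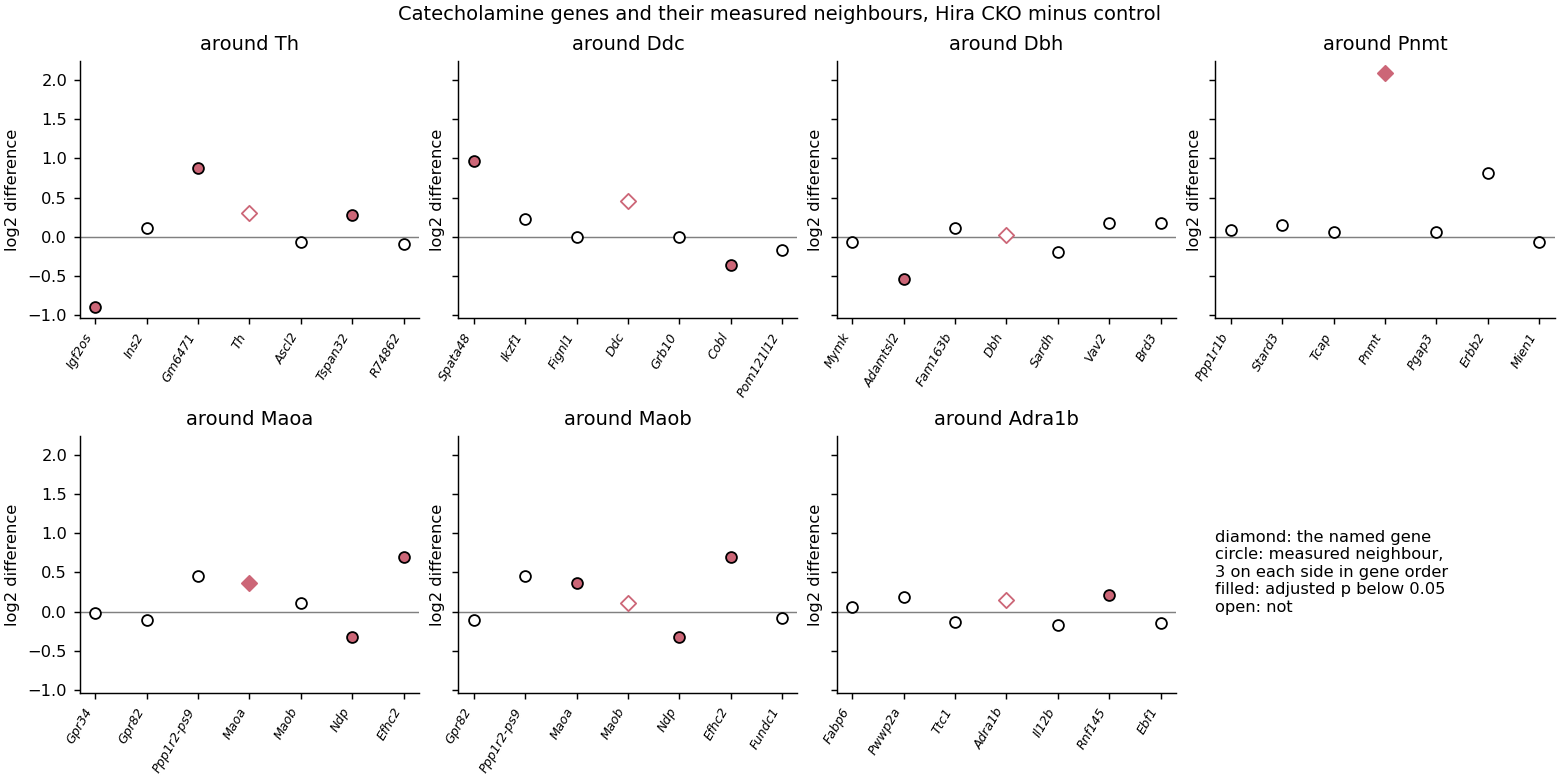
Log2 difference (Hira CKO minus control) of each catecholamine gene and of the 3 measured genes on each side of it in the RefSeq order, at each gene's brightest probe; the diamond is the named gene, circles are its neighbours, and filled marks passed the limma threshold. Pnmt stands at 2.09 between Tcap and Pgap3, both at 0.06.

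The 5 genes whose pattern over the 8 animals was closest to that of Pnmt were H19, Ppt1, Tlcd2, A530095I07Rik and Rom1. Likeness was the root mean square difference of log2 values, each centred on its control mean, which ran from 0.220 for H19 to 0.253 for Rom1. Centring on the control mean leaves the group difference in the measure. It therefore picks genes that differ between the groups about as much as Pnmt, whatever their order of animals within a group. H19, an imprinted non-coding RNA, was higher by 2.20 log2. Ppt1, a lysosomal thioesterase, went from 391 ± 33.1 to 1439 ± 285 (SD, n = 4), and Rom1, a photoreceptor membrane protein, from 3803 ± 426 to 15208 ± 224 (SD, n = 4). These genes were chosen for their likeness, and the order says no more than that.

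The supply of cofactors and the fate of catecholamines were followed in a list of 23 genes, of which 19 were measured. Of these, 1 was higher, 2 were lower and 16 did not pass, with a median of 0.05 log2. Over all genes, by the brightest probe, 11.0% were higher and 10.3% lower with a median of 0.01 log2, and the counts of every list are to be read against these shares. Pts, which makes the tetrahydrobiopterin cofactor that TH needs, fell from 4302, 4082, 4286 and 4397 to 3333, 3363, 2766 and 3376, or -0.41 log2 with an SE of 0.0825 (limma adjusted p 0.0071). The lowest control was far above the highest Hira CKO animal. Aldh2, a mitochondrial aldehyde dehydrogenase that clears the aldehydes left by monoamine oxidase, fell by 0.32 log2 (limma adjusted p 0.0231), with the call lost without control animal 4 (0.0531) or Hira CKO animal 1 (0.0677). Adh5, an alcohol dehydrogenase, rose from 514 ± 50.6 to 689 ± 20.0 (SD, n = 4; limma adjusted p 0.0065). The other steps of cofactor supply did not pass: Gch1, the first enzyme of that route, differed by -0.16 log2, and Spr and Qdpr by 0.17 log2 each. The vesicle transporters that load catecholamines were near the bottom of the intensity range, with Slc18a1 at 62.0 and 67.7 and Slc18a2 at 58.9 and 57.5, and neither passed. The noradrenaline transporter Slc6a2 differed by 0.20 log2 and did not pass.

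Of 12 other adrenergic, dopamine and trace amine receptors, 6 were measured, all of them dopamine or trace amine receptors, and 0 passed the limma test. At an unadjusted p below 0.05, 3 of the 6 passed, as did 35.9% of all genes by their brightest probe. Drd1 came nearest, at 358 ± 27.3 and 425 ± 22.1 (SD, n = 4; limma adjusted p 0.0551). Without control animal 1, Drd1 (0.0405), Drd3 (0.0453) and Drd5 (0.0227) passed the threshold. The 6 other adrenergic receptors were not analysed here.

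Of 34 listed genes of the Gs, adenylyl cyclase and protein kinase A route, 24 were measured, none of them an adenylyl cyclase gene. Among these 24, 0 rose, 4 fell and 20 did not pass (median -0.04 log2), where 11.0% of all genes rose and 10.3% fell. Akap1, which anchors protein kinase A to mitochondria, fell most. It read 972, 1004, 1446 and 1494 in controls and 269, 379, 258 and 203 in Hira CKO, and the highest Hira CKO animal was far below the lowest control. This came to -2.10 log2 (SE 0.199, limma adjusted p 1.13e-04) and held in all 8 fits that leave out 1 animal. Smaller falls were found for Gnal, a Gs-like alpha subunit (-0.35 log2), Crtc2, a coactivator of CREB (-0.31 log2), and Creb1 itself (-0.28 log2). Their limma adjusted p values were 0.0158, 0.0205 and 0.0265. Gnal was not called without control animal 3, Crtc2 without control animal 3 or Hira CKO animal 2, and Creb1 in 6 of the 8 fits. With 1 animal left out, 2 to 4 genes fell and 0 to 2 rose: Akap6 passed as higher without control animal 4 or Hira CKO animal 3 (0.34 log2, limma adjusted p 0.0468 and 0.0481) and Rapgef4 without Hira CKO animal 3 (0.45 log2, 0.0297). A second Gnal probe differed by -0.04 log2. Gnas, the Gs alpha subunit, did not pass (-0.36 log2, limma adjusted p 0.126) but did without Hira CKO animal 4 (-0.53 log2, 0.0045).

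Genes that end receptor signalling or break down cyclic AMP moved in both directions: of 19 measured, 3 rose and 5 fell (median -0.06 log2), beside 11.0% and 10.3% of all genes. Grk3, a kinase that turns off occupied receptors, rose from 861, 992, 926 and 1021 to 1941, 2311, 1709 and 2044. The difference was 1.06 log2 (SE 0.101, limma adjusted p 1.19e-04) and the groups were far apart, but a second Grk3 probe differed by -0.06 log2 (limma adjusted p 0.663). Which probe follows the gene was not tested. Rgs5, a regulator of G protein signalling found in pericytes, fell by 1.11 log2 (limma adjusted p 0.0137). Pde4b, a cyclic AMP phosphodiesterase, fell by 0.56 log2 (limma adjusted p 0.0159), with a second probe at -0.23 log2 that did not pass. Grk6 fell by 0.53 log2 (limma adjusted p 0.0011), while its second probe differed by 0.13 log2 and did not pass. The remaining 4, named after their values were seen, were Pde4c (0.50 log2), Grk4 (0.48 log2), Gnai2 (-0.30 log2) and Grk2 (-0.24 log2). Pde4c was not called without Hira CKO animal 1, Grk4 without control animal 2, control animal 3 or Hira CKO animal 1, and Grk2 in 7 of the 8 fits. Pde4d passed as lower without control animal 2 or Hira CKO animal 3 (-0.57 log2, limma adjusted p 0.0349 and 0.0312). With 1 animal left out, 1 to 3 genes rose and 4 to 5 fell.

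All 14 listed genes of the Gq and phospholipase C route, through which ADRA1B signals, were measured, and 4 rose, 1 fell and 9 did not pass (median 0.16 log2). Over all genes 11.0% rose and 10.3% fell. Prkce, a protein kinase C, rose from 706 ± 63.9 to 915 ± 42.6 (SD, n = 4; limma adjusted p 0.0109) and held in all 8 fits that leave out 1 animal. Prkcd (0.48 log2) and the calcium release channel genes Itpr2 (0.40 log2) and Itpr1 (0.35 log2) were not called in 7, 4 and 6 of those fits. Dgka, which clears diacylglycerol and was named after its value was seen, fell by 0.29 log2 and was called in none of them. With 1 animal left out, 1 to 3 genes of this list rose and 0 or 1 fell. Gna14 passed as higher without Hira CKO animal 1 (1.06 log2, limma adjusted p 0.0306). Prkca passed as lower without Hira CKO animal 4 (-0.51 log2, limma adjusted p 0.0254).

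Genes known to respond to the hormones were followed in a pair of lists. Of 20 muscle genes known to respond to beta-adrenergic stimulation, 2 rose (Smpx by 0.33 and Ostn by 0.28 log2), 2 fell (Pde4b and Btg2, the latter by -0.28 log2) and 16 did not pass, beside 11.0% of all genes higher and 10.3% lower. The number that rose ranged from 0 to 2 and the number that fell from 1 to 4 with 1 animal left out. Btg2 was not called in 2, Smpx in 3 and Ostn in 5 of those 8 fits. Without control animal 2, Ucp3 (-0.85 log2, limma adjusted p 0.0039) and Junb (-0.75 log2, 0.0345) passed as lower. A second Btg2 probe differed by -0.09 log2 (limma adjusted p 0.514). Ppargc1a and Nr4a1, commonly used as responders, differed by -0.08 and -0.06 log2 (limma adjusted p 0.776 and 0.866). Of 19 glucocorticoid response genes, 1 fell and 18 did not pass. That gene was Errfi1, a feedback inhibitor of the EGF receptor family, at 693, 678, 1492 and 1386 in controls and 137, 284, 299 and 200 in Hira CKO (-2.11 log2, SE 0.309, limma adjusted p 0.0014). Its controls formed a lower and a higher pair, both above every Hira CKO animal. Fkbp5 and Nr3c1, the glucocorticoid receptor, differed by 0.07 and -0.09 log2. Mt2, a metallothionein, differed by 1.35 log2 with a wide spread (limma adjusted p 0.0549) and passed without control animal 4 (1.70 log2, 0.0192). Tsc22d3 did not pass (-0.31 log2, limma adjusted p 0.125) but passed as lower without Hira CKO animal 3 (-0.44 log2, 0.0178).

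Of 13 measured regulators known to act on the Pnmt and Th promoters, 0 rose and 1, Creb1, fell. Egr1, an activator of Pnmt in chromaffin cells, had means of 4014 ± 1471 for controls and 2465 ± 874 for Hira CKO (SD, n = 4 each) and did not pass (limma adjusted p 0.116). Phox2a, a factor of noradrenergic neurons, did not pass either (-0.40 log2, limma adjusted p 0.0923). At an unadjusted p below 0.05, 6 of the 13 passed, as did 35.9% of all genes.

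Chromaffin cells, which make adrenaline, and sympathetic neurons, which release noradrenaline, were followed by markers in a single list that does not separate them. Of 20 measured chromaffin cell and sympathetic neuron markers, 2 rose, 1 fell and 17 did not pass, with a median of -0.03 log2, against 11.0% higher and 10.3% lower over all genes. Their summed intensity was 9969 to 10903 in controls and 8608 to 11663 in Hira CKO. Chgb made up 42.0% of that sum, and without it the ranges were 5616 to 6135 in controls and 5634 to 6629 in Hira CKO. Chga, the chromogranin of chromaffin granules, had means of 209 ± 9.09 for controls and 187 ± 20.0 for Hira CKO (SD, n = 4 each). Chgb was 4511 and 4148, and Hand2 59.1 and 53.2. The markers that rose were Scg3, a granule protein (101 to 145, limma adjusted p 0.0030), and Prph, a neuronal filament protein (318 to 445, limma adjusted p 0.0071). Hand2 and the control mean of Scg3 lay below the median of 118 of the olfactory receptor probes. Stmn2, a growth cone protein, fell by 0.68 log2 (limma adjusted p 0.0097).

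Other cell types of muscle were followed in the same way, beside 11.0% of all genes higher and 10.3% lower. Among 9 Schwann cell markers 1 rose, Gldn (0.32 log2, not called in 5 of the 8 fits that leave out 1 animal). The summed intensities overlapped (23131 to 42153 in controls and 28582 to 31509 in Hira CKO). Pmp22 made up 50.7% of that sum, and without it the ranges were 14264 to 18747 in controls and 13913 to 16189 in Hira CKO. Among 16 adipocyte markers 1 rose, Ucp1, the uncoupling protein of brown fat, from 96.3 ± 7.38 to 215 ± 62.4 (SD, n = 4, limma adjusted p 0.0021). Both Ucp1 means lay below the upper quartile of 423 of the olfactory receptor probes. The adipocyte sum was 364096 to 387498 in controls and 325664 to 358032 in Hira CKO, but 65.0% of it was Car3, a carbonic anhydrase that muscle fibres also make. The sum of the other markers, taken after the data were seen, overlapped at 116873 to 155009 and 98917 to 132459, and 0 of the 16 fell. Among 10 smooth muscle and pericyte markers 3 fell: Rgs5, Mcam by 0.73 log2 and Smtn by 0.41 log2. Smtn was not called without control animal 2 or control animal 3. The other 7 did not pass, at -0.32 (Acta2) to 0.10 log2 (Pdgfrb). The sum of the 10 was 56659 to 64832 against 68298 to 81363 in controls. Abcc9 made up 27.5% of it, and the sum without Abcc9 was 38915 to 46245 against 48895 to 61139 in controls. Both sums hold Smtn, at 12411 to 16543 in Hira CKO against 18108 to 21687 in controls. A sum without Smtn was not taken, so the separation is not read as a shift of the markers together. Of 11 mast cell and serotonin markers, Tph2, the neuronal tryptophan hydroxylase, rose (79.0 to 133, 0.65 log2) and Hdc, which makes histamine, fell (152 to 105, -0.48 log2). Of 10 fibre markers, Acta1, the skeletal alpha-actin, fell from 176618 ± 15479 to 120465 ± 7609 (SD, n = 4; limma adjusted p 0.0020) and Ckm by 0.28 log2, the latter not called in 6 of the 8 fits. In these lists 0 markers were at 0 in every animal, which on these arrays does not show that the cells are present. The part of these shifts in the values of the catecholamine genes was not tested.

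**Figure D5:**
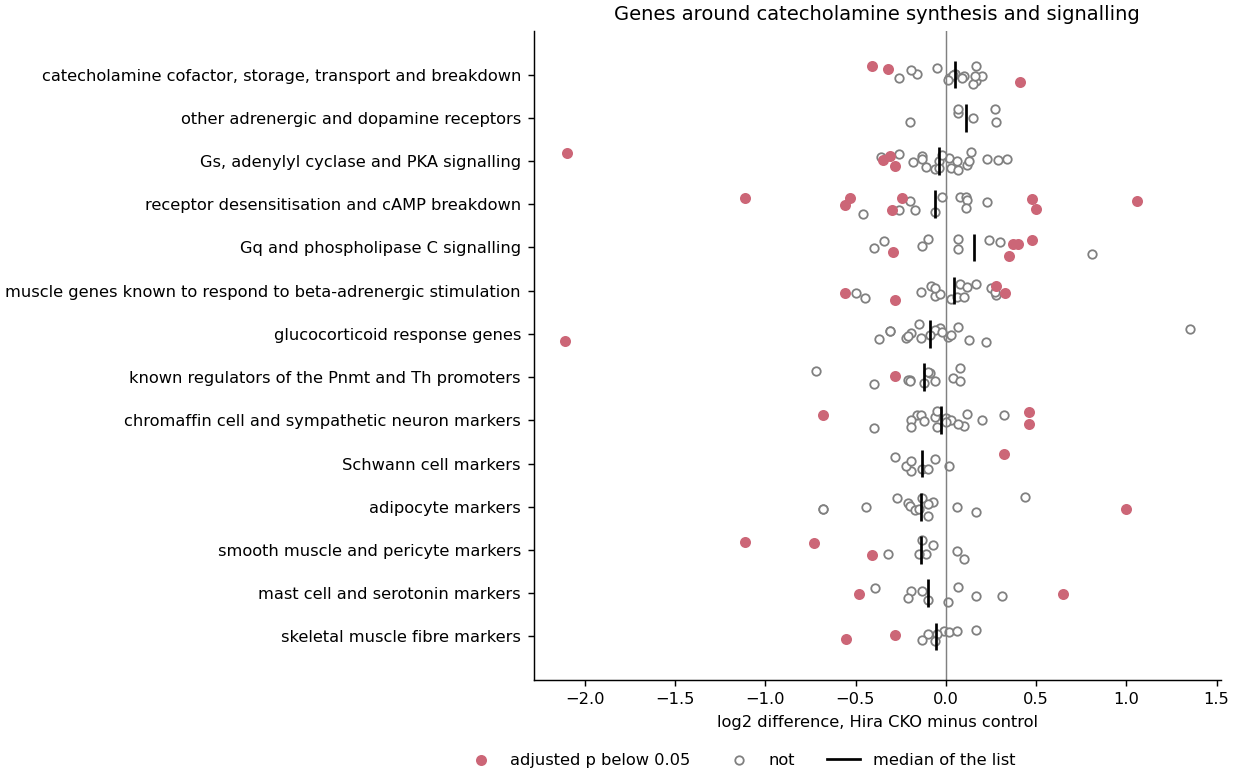
Log2 difference (Hira CKO minus control) of each measured gene of the 14 lists at its brightest probe: filled red points have a limma adjusted p below 0.05, open points do not, and the black bar is the list's median. List medians lie between -0.14 and 0.16, and single genes such as Akap1 and Errfi1 lie near -2.1.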

How the data were processed

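The deposited table held 1 intensity per probe and array, on a linear scale. The authors had normalized it and subtracted background, to judge by nearly equal array medians and 50 values at or below 0. Software and background method are not given in the sources used here. Per the labels, RNA was extracted with Trizol and labelled with Cy5. Slide, scan date and sex are not given, so a batch of arrays cannot be told apart from a group. Precision is limited by the number of animals, 4 per group, each measured on 3 arrays.

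Probes were named by the platform annotation (20377 with 1 symbol, 6046 unnamed, 0 with several), updated through RefSeq GRCm38.p6 (18213 current, 2126 synonyms, 38 kept), which was used for names, gene order and promoter sequences. A log2 table had been planned for. The intensities were linear, so log2(intensity + 16) was taken with values below 0 set to 0, and the 3 arrays of an animal were averaged. The test between groups of 4 animals was that of limma 3.58.1 under R 4.3.3 (lmFit, eBayes, Benjamini-Hochberg over 26423 probes, threshold 0.05), tested on simulated data. A gene of a list was taken at its brightest probe. The lists gave up to 4 called genes each by size of change. Means ± SD are of animal means. The 9 genes and the 14 lists were chosen with earlier results of these data known. Alternatives were other pseudocounts, normalizations, array treatments, variance models, thresholds, a filter on dim probes, a replicate block and each animal left out. Columns of other series numbered 0. Python 3.11.15 and matplotlib 3.10.9 drew the figures.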

Additional observations from a re-analysis of the deposited data

Results flagged for a closer look

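In 14 sets of 4 animals (7 genes in 2 groups), the distance of the highest or lowest animal from the nearest other was set against the range and read by Dixon's critical value. For independent sets with a normal spread, chance gives about 1 such set in 20. Here 4 were found, all in control animal 3 or Hira CKO animal 4. The 14 sets share their animals, so no excess over chance is read from this count. Th in control animal 3 was 413.5, below the other controls at 658 to 702. Maoa in the same animal was 194.0, below the others at 217 to 221. Ddc in Hira CKO animal 4 was 524.0, above the other 3 at 297 to 328. Maob in that animal was 4129.0, below the other 3 at 5388 to 5644.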

How the results depend on the processing

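The main fit called 5432 probes, 2 of the 7 catecholamine genes and 35 listed genes. On single arrays per animal these counts fell to 3191, 1 and 23 (array 1), 2848, 1 and 19 (array 2) and 3124, 2 and 18 (array 3). At an adjusted p below 0.01 they were 2409, 1 and 13. With 1 animal left out they ranged over 3680 to 5133, 1 to 2 and 24 to 33. A stricter threshold lowers such counts by construction. Why they were lower with fewer arrays or fewer animals was not tested. As a description, since the catecholamine genes were chosen on this comparison, the 2 counted were Pnmt and Maoa. Maoa was not counted without control animal 3, without Hira CKO animal 1, on array 1 or array 2 alone or at the stricter threshold. Ddc was added with all 24 arrays and the animal as a random block. Dbh changed sign on array 1 alone (-0.09 log2) and ranged from -0.01 to 0.08 log2 with 1 animal left out. The cause was not tested. The labels do not say whether same-numbered animals of the groups pair. Their deviations correlated at 0.296, 0.093, -0.064 and 0.067, and those of differently numbered animals at -0.213 to 0.173. With the animal's number as a replicate block, 4925 probes, 2 catecholamine genes and 36 listed genes were called. Adra1b gave no value under the filter on dim probes. Of the listed genes called in the main fit, Ucp1, Scg3, Tph2 and Hdc gave none there either. No detection calls were used, so brightness does not tell how far a dim probe follows its gene.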

Other observations

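Both animals that stood apart for a catecholamine gene did so for more than 1 probe. Control animal 3 gave the lowest control value for Th, for Maoa, for Maob and for the Pnmt neighbour Erbb2, which was 188 there against 405 to 648 in the other controls, while its Pnmt value of 1155 lay within the range of the other controls. Its 3 Th arrays read 311, 365 and 565. Among the Schwann cell markers, looked up after the values were seen, control animal 3 was also the lowest control for Mbp, Pmp22 and S100b. It read 801 for Mbp and 8396 for Pmp22, against 1732 to 3129 and 14876 to 23406 in the other controls. It was not the lowest control for Sox10, Egr2, Ngfr, Mag, Gldn or Ncam1. Hira CKO animal 4 gave the highest Ddc and Maoa and the lowest Pnmt, Maob, Th, Dbh and Adra1b of its group.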
